A study of Mus musculus with 24 samples.

Results

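The heat shock proteins, their J-domain partners and the cold-inducible RNA-binding proteins were followed across all groups of a mouse liver array study. Members were the array's gene names for the Hsp90, Hspa, Hspb, Hspd, Hspe and Hsph families and for the Dnaja, Dnajb and Dnajc families, together with Cirbp and Rbm3. The endoplasmic reticulum chaperones Hspa5, Hsp90b1 and Dnajb9 were left out. This gave 71 genes on 157 probes, out of 37074 gene names on 56605 probes. Of the 71, 64 had a probe above background and were tested, within 21331 genes tested in all. The name patterns also brought in Hspbap1 and Hspbp1, which bind heat shock proteins and are not chaperones of these families themselves.

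The livers came from 24 male C57Bl/6J mice, with 1 array labelled with Cy3 per mouse and 6 mice in each of 4 groups. LWT and LKO mice differed in PPARα, a nuclear receptor that responds to fatty acids: the series title describes mice with and without it in hepatocytes, and the reading of the labels LWT and LKO rests on that title. The alleles and the driver of the deletion are not given in the sources used here. CL316243, which activates beta3 adrenergic receptors, was given at 3 mg/kg by gavage at Zeitgeber time 10 h to the groups labelled Beta3. The Vehicle groups received 0.5% carboxymethyl cellulose, in which the agonist was also dissolved. All mice were housed at 21 to 23 °C with a light phase of 12 h, ate a standard diet freely and were killed at Zeitgeber time 16 h, which is 6 h after the gavage. The study asks what beta3 adrenergic activation does to liver transcripts, and how far this depends on hepatocyte PPARα.

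Heat shock proteins are molecular chaperones that hold, fold or disaggregate other proteins. Hsp70 works in cycles that J proteins start by stimulating its ATPase and that Hsp110 proteins drive on by exchanging its nucleotide, small heat shock proteins hold unfolded clients, Hsp90 matures kinases and steroid receptors, and Hspd1 with Hspe1 forms the folding chamber of the mitochondrial matrix. The heat-inducible members are switched on by heat shock factor 1 through repeated inverted GAA units in their promoters, whereas Cirbp and Rbm3 rise with mild cooling, and in liver all of these genes can follow the daily rhythm of body temperature.

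Values are log2 of the processed signal relative to the 75th percentile of each array, so that 0 is the level of that percentile. Levels of different genes on this scale rest on different probes and are not set against each other. Differences are log2 changes from a linear model over all 24 arrays, and a gene was called where limma's p, adjusted by the Benjamini-Hochberg method over the 21331 genes, was under 0.05. The groups' names are written below as LWT or LKO with vehicle or CL316243.

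Between 26985 and 34202 probes stood well above background per array, and the 75th percentile of the signal was 397.4 to 577.7. Both Ppara probes were lower in LKO than in LWT, with no overlap between the 6 mice of each genotype under either treatment; at the probe nearer the transcript's start, levels were 4.81 to 5.18 in LKO vehicle and 5.45 to 5.93 in LWT vehicle. Which bases the deletion removes is not given in the sources used here, so a probe may lie outside it. LKO CL316243 replicate 3 stood apart from the other mice. On the first principal component of all genes tested (42.0% of the variance) it lay at 85.9, against at most 72.5 in any other mouse, and on the second (14.3%) at 62.2, against at most 36.2. Results that rest on this mouse are therefore given with and without it. The mean level of 6 hepatocyte markers was 7.81 to 8.23 in LWT vehicle, 7.81 to 8.37 in LWT CL316243, 8.01 to 8.25 in LKO mice on vehicle and 7.66 to 8.39 in those on CL316243, and 1 of the 6 was called (Apoa1, lower with CL316243 in LKO). Markers of some other cells moved with treatment. The mean of 6 neutrophil markers was -2.19 to -1.32 in LWT mice on vehicle and -2.13 to -0.66 in those on CL316243, where 2 rose and 1 fell, and it was -2.19 to -1.78 in LKO mice on vehicle and -1.69 to 0.22 in those on CL316243, where 4 rose. The mean of 6 endothelial markers was 0.999 to 1.42 and 1.29 to 1.65 in the LWT groups (2 rose, 1 fell) and 0.84 to 1.29 and 1.31 to 1.53 in the LKO groups (1 rose, 1 fell). Lyve1 rose by 1.18 in LWT and 2.39 in LKO, while Kdr changed by -0.40 and -0.56. The median change of the 6 was 0.16 in LWT and 0.01 in LKO. Of 5 cholangiocyte markers 1 rose in LWT and 2 rose in LKO, with a mean of -2.57 to -1.73 in LKO mice on vehicle and -2.28 to -0.77 in those on CL316243. None of 7 Kupffer cell markers was called in either genotype, and the lymphocyte markers Cd79a and Cd8a and the muscle markers Ckm and Actn3 were not above background. The part of these cells in the changes below was not tested, and in whole liver, fewer cells of a type and less RNA per cell cannot be told apart.

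The promoters of 5 members are shown because the results below turn on these genes and because their shared sequence can be read directly. They are the 250 bases before the RefSeq start (build GRCm38.p6, gene strand, 5′ to 3′), in lower case, with every GAANNTTC and TTCNNGAA in capitals. These are inverted pairs of the GAA unit, and each reads the same on both strands. Hspa1b lies at chr17:34959239-34959488 (minus strand), Hspa1a at chr17:34972157-34972406 (minus strand), Hspd1 at chr1:55087933-55088182 (minus strand), Hspb1 at chr5:135887669-135887918 (plus strand) and Cirbp at chr10:80167589-80167838 (plus strand).
Hspa1b: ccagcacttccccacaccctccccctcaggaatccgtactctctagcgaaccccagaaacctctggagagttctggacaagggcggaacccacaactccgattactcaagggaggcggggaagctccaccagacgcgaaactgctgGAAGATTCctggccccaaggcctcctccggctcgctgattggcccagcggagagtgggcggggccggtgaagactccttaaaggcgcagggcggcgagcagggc
Hspa1a: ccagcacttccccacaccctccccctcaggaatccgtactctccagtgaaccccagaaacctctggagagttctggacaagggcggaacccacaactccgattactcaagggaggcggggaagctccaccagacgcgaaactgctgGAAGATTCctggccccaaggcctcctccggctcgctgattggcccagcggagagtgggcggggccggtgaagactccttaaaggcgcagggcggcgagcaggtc
Hspd1: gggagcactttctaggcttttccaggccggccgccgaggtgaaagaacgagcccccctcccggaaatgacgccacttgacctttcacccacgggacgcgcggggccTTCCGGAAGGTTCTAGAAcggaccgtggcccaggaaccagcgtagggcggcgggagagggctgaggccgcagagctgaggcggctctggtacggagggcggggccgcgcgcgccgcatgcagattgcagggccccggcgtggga
Hspb1: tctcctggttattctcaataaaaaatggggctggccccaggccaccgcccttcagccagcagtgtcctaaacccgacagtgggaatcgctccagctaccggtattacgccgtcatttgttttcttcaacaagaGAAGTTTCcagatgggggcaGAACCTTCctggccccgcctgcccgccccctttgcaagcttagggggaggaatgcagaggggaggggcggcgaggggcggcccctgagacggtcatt
Cirbp: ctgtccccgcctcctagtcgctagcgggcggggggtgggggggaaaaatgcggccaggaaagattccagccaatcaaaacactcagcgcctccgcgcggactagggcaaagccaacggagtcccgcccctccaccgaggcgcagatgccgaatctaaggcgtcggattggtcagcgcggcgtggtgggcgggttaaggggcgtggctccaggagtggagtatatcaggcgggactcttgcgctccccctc

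The promoters of Hspa1a and Hspa1b, the neighbouring genes of the heat-inducible Hsp70, differed at 3 of 250 positions and each held 1 pair of units. Hspb1 held 2 separate pairs and Cirbp none. In Hspd1 the pairs overlap into a longer run, which also lies in the window of Hspe1. The windows of these 2 genes run in opposite directions and share 215 bases. A match of these letters is a description and not evidence of binding. Among the 57 of 71 members with a promoter in the RefSeq table, 15 (26.3%) held a pair of units within the 300 bases from 250 before to 50 after the start, against 17% of 27025 genes. The run of 3 units, GAANNTTCNNGAA or its other strand TTCNNGAANNTTC, which contains the pairs, was found for 4 members (7.02%), against 0.662% of all genes. These 4 were Hspd1, Hspe1, Dnajb6 and Hsph1, in the last within the 50 bases after the start. Of the members that CL316243 changed in both genotypes, 12 had a promoter in the table, and 2 of them, Hspb8 and Dnajb4, held a pair of units, while 0 held the run of 3.

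CL316243 changed a mixed set of these genes, in both directions. In LWT 23 of 64 members were called (11 higher and 12 lower), where 38.3% of all genes tested were called (18.9% higher and 19.4% lower). In LKO 29 were called (14 higher and 15 lower), where 40.3% of all genes were called (20.9% higher and 19.4% lower). Treated and vehicle mice did not overlap for 14 members in LWT and 10 in LKO, against 20.4% and 20.8% of all genes. These shares are near the background, so the count of members called is no result about the family. The median change of the members was -0.05 in LWT and 0.03 in LKO, beside 0.01 and 0.03 over all genes. A set of 7 members rose in both genotypes, namely Hspb8, Hspa2, Dnajc12, Hspa4, Dnaja2, Hspa9 and Dnajc13, and 8 fell in both, namely Cirbp, Dnajb4, Dnajc9, Dnajc30, Dnajc4, Dnajc8, Dnajb14 and Dnajc1. These 15 compare with 24.7% of all genes called in the same direction in both genotypes, and 0 members were called in opposite directions, against 0.609% of all genes. The 2 comparisons share no mice. Without LKO CL316243 replicate 3 the counts were 26 in LWT and 25 in LKO. The shares of all genes called without this mouse are not given here, so these counts are not read as a change in the family. Of the members called in both genotypes, Dnaja2, Hspa9, Dnajb4 and Dnajc9 then lost their LKO calls. The LKO calls of Hsp90aa1, Hspa12a and Dnajc3 were lost too, and Hspa1b, Hspa4l and Dnajb6 were newly called there.

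**Figure D1:**
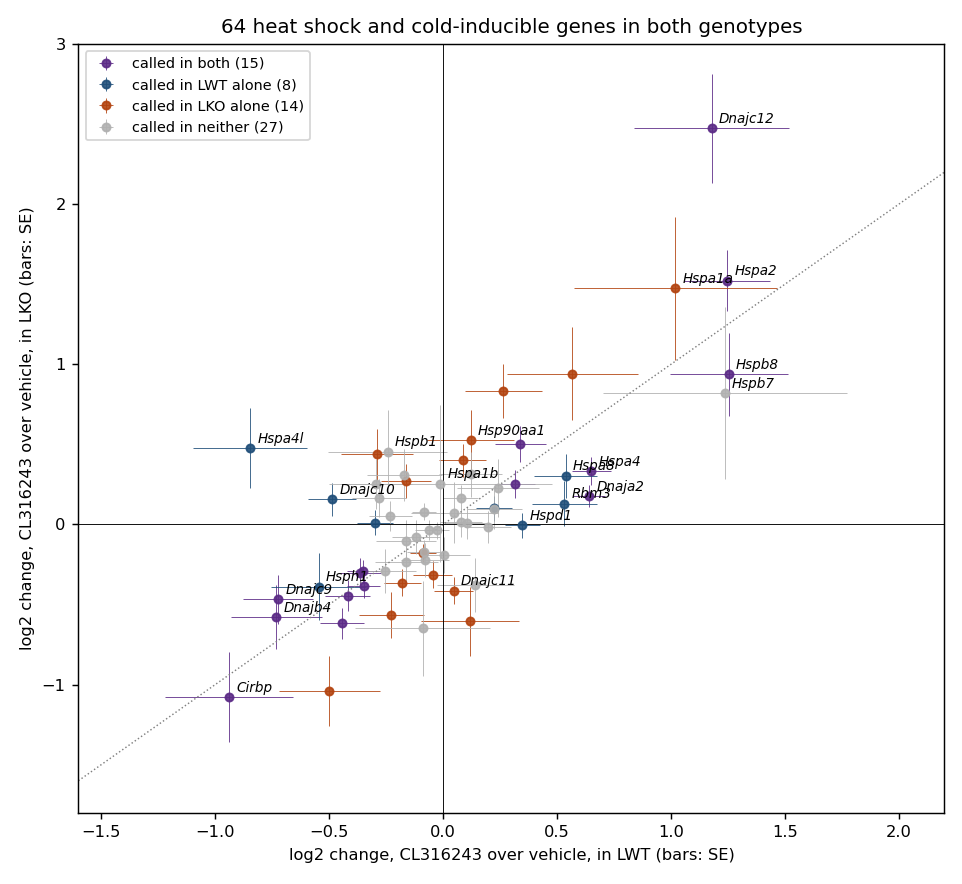
Log2 change with CL316243 over vehicle in LWT (horizontal) and LKO (vertical) for the 64 tested members, with bars for the standard error and colours for the genotype in which a gene was called. Dnajc12 lies at 1.18 and 2.47 above the dotted line of equal change, Cirbp at -0.94 and -1.08 near it, and Hspa4l at -0.85 and 0.48 on the opposite side of 0.

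The cold-inducible RNA-binding proteins went different ways. Cirbp, which binds and stabilises transcripts at mild cold, fell by 0.94 ± 0.28 (SE, n = 6 a group) on the log2 scale in LWT and by 1.08 ± 0.28 in LKO (limma, adjusted p = 0.0107 and 0.00385). Its level ran from 0.84 to 1.94 in LWT vehicle (median 1.43), from -0.49 to 1.18 in LWT CL316243 (median 0.50), from 1.07 to 1.82 in LKO vehicle (median 1.71) and from -0.50 to 1.09 in LKO CL316243 (median 0.56). Treated mice were mostly lower, but the ranges overlapped in both genotypes, and LKO CL316243 replicate 3 and LWT CL316243 replicate 2 had the lowest values. Without the former, the change in LKO was -0.89 ± 0.27 (adjusted p = 0.0121). Of its 2 dimmer kept probes, the dimmest, for the same RefSeq transcript, gave -0.78 and -1.15, and the other, for another transcript, gave -0.31 and -0.10.

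Rbm3, a close relative with the same cold response, rose in LWT. It lay between 2.90 and 3.30 in LWT vehicle (median 3.13) and between 3.52 and 3.82 in LWT CL316243 (median 3.63), with no overlap, a change of 0.53 ± 0.14 (limma, adjusted p = 0.00508). In LKO it ran from 2.70 to 3.37 under vehicle (median 3.21) and from 2.64 to 3.76 under CL316243 (median 3.30), and the change of 0.13 ± 0.14 was not called (adjusted p = 0.493). The spread of the treated LKO mice covered nearly the whole range of both LWT groups, with replicate 3 highest and replicate 4 lowest. The difference between the genotypes' changes, -0.40 ± 0.20, was not called either (adjusted p = 0.301). All 4 Rbm3 probes gave a positive change in LWT, 0.34 to 0.63, and a change between -0.05 and 0.13 in LKO. Under CL316243, LKO minus LWT was -0.37 ± 0.14 (adjusted p = 0.0863), and -0.46 ± 0.14 without LKO CL316243 replicate 3 (adjusted p = 0.0197).

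Of the heat-inducible Hsp70 genes, Hspa1a responded to CL316243 and 1 mouse set the value of Hspa1b. The coding sequences of these neighbours are nearly identical and cross-hybridisation was not tested, although their 60-base probes share no run longer than 5 bases. Hspa1a ran from -2.26 to -1.20 in LWT vehicle (median -1.69), from -1.37 to -0.12 in LWT CL316243 (median -0.56), from -1.87 to 0.46 in LKO vehicle (median -0.82) and from -1.63 to 1.45 in LKO CL316243 (median 1.08). Of the 6 treated LKO mice, 5 lay above all mice of the other 3 groups, and replicate 3 lay among the vehicle mice. The change in LKO was 1.47 ± 0.44 (limma, adjusted p = 0.0109), and 1.94 ± 0.34 without replicate 3 (adjusted p = 0.000138). In LWT the change of 1.02 ± 0.44 was not called (adjusted p = 0.0754), but it was called at the same size once that LKO mouse was left out of the shared estimate of spread (adjusted p = 0.0143). Fitted on the LKO mice alone, the change in LKO was not called (adjusted p = 0.0516), and within the slide that held replicate 3 it was -0.26. Hspa1a was also higher in LKO than in LWT under CL316243, by 1.40 ± 0.44 (adjusted p = 0.034), a call lost with the replicate number as a block (adjusted p = 0.0606), on the treated groups alone (adjusted p = 0.0915), with no filter on dim probes, and without any of 8 other mice. The difference was 1.86 ± 0.34 without replicate 3 (adjusted p = 0.0004).

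Hspa1b had a similar order in the treated LKO mice. Its level was 0.25 to 0.86 in LWT vehicle (median 0.67), -0.12 to 1.72 in LWT CL316243 (median 0.50), 0.80 to 1.88 in LKO vehicle (median 1.01) and -1.68 to 2.62 in LKO CL316243 (median 1.89). Replicate 3 was the lowest of all 24 mice. With it the change in LKO was 0.26 ± 0.49 (limma, adjusted p = 0.705), and without it 0.88 ± 0.27 (adjusted p = 0.0122). Likewise LKO minus LWT under CL316243 was 0.82 ± 0.49 (adjusted p = 0.293) with this mouse and 1.45 ± 0.27 (adjusted p = 0.000441) without it. In LWT the change was -0.01 ± 0.49 (adjusted p = 0.99). The difference between the genotypes' changes was not called for either gene, with or without the mouse.

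No rise was called for Hspb1, Hsph1 or the J proteins Dnajb1 and Dnaja1. Hspb1, a small heat shock protein that also binds actin, ran from 3.54 to 5.03 in LWT vehicle, 3.25 to 4.08 in LWT CL316243, 3.42 to 4.12 in LKO mice on vehicle and 3.64 to 5.42 in those on CL316243. All 4 groups overlapped, with LWT vehicle replicate 2 and LKO CL316243 replicate 4 far above the rest of their groups. Its changes were -0.24 ± 0.26 in LWT and 0.46 ± 0.26 in LKO, neither called (limma, adjusted p = 0.501 and 0.171). Hsph1, the heat-inducible Hsp110, was 2.81 to 3.58 in LWT mice on vehicle (median 3.24) and 2.07 to 2.99 in those on CL316243 (median 2.80), and fell by 0.54 ± 0.21 in LWT (adjusted p = 0.043). This call was lost when any of 7 LWT mice was left out and with slide as a block. In LKO, Hsph1 ran from 2.56 to 3.67 under vehicle and 2.19 to 3.27 under CL316243, a change of -0.39 ± 0.21 (adjusted p = 0.144). Dnajb1, the J protein of the inducible Hsp70, changed by -0.16 ± 0.13 and -0.10 ± 0.13 (adjusted p = 0.359 and 0.558), and Dnaja1 by -0.08 ± 0.11 and -0.22 ± 0.11 (adjusted p = 0.589 and 0.0995).

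**Figure D2:**
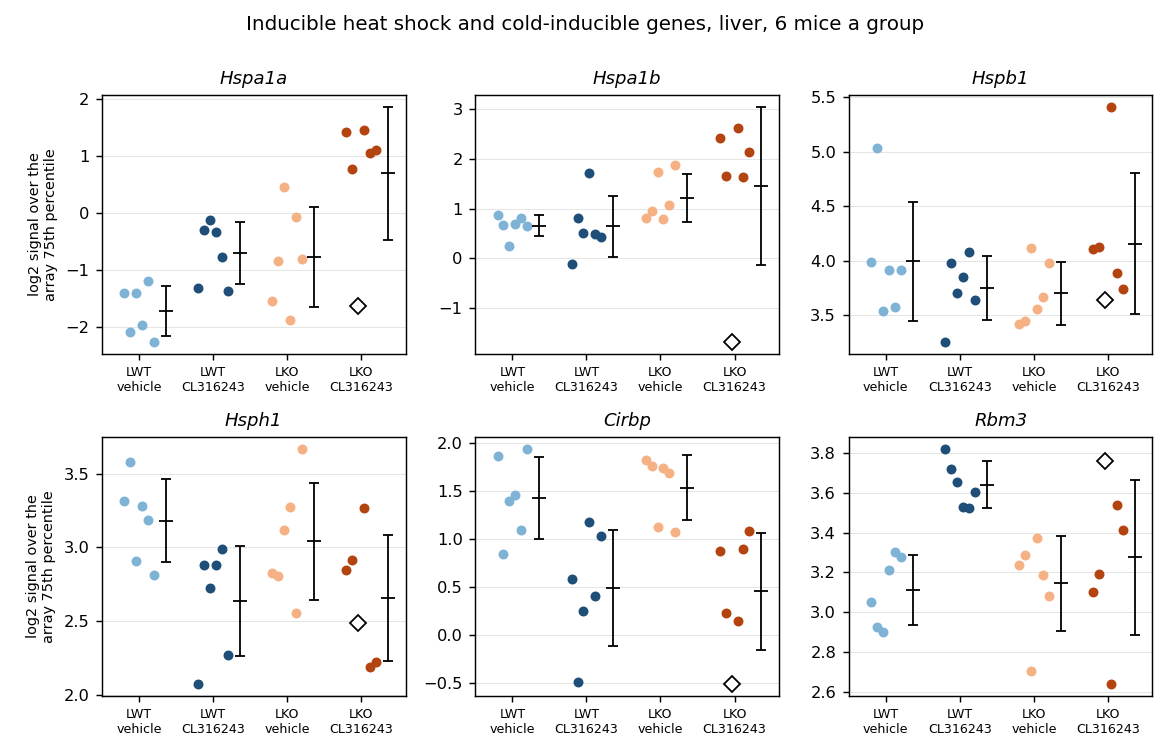
Level in each mouse (log2 signal over the array's 75th percentile) of Hspa1a, Hspa1b, Hspb1, Hsph1, Cirbp and Rbm3 in the 4 groups of 6, with the mean and SD at the right of each group. The open diamond is LKO CL316243 replicate 3, which lies at -1.63 for Hspa1a and -1.68 for Hspa1b, below the other 5 treated LKO mice.

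Among the remaining Hsp70 proteins, 3 rose in LWT: Hspa2, Hspa8 and Hspa9. Hspa2, best known from the testis, was -0.90 to -0.17 in LWT mice on vehicle and -0.13 to 0.88 in those on CL316243, and -0.65 to -0.12 in LKO mice on vehicle and 0.45 to 1.55 in those on CL316243. Treated and vehicle mice did not overlap in either genotype. The rise was 1.25 ± 0.19 in LWT (2.37-fold) and 1.52 ± 0.19 in LKO (2.87-fold; limma, adjusted p = 2.09e-05 and 2.57e-06). Hspa8, the constitutive cytosolic Hsp70, was 6.65 to 6.92 in LWT mice on vehicle and 7.09 to 7.52 in those on CL316243, with no overlap, a rise of 0.54 ± 0.14 (adjusted p = 0.00362). In LKO it was 6.62 to 7.18 and 6.65 to 7.72, and the change of 0.30 ± 0.14 was not called (adjusted p = 0.0848). Its 3 other probes rose by 0.65 to 0.71 in LWT but gave 0.04, -0.07 and -0.13 in LKO, so the LKO value depends on the probe.

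Hspa9, the Hsp70 of the mitochondrial matrix, rose by 0.32 ± 0.09 in LWT and 0.25 ± 0.09 in LKO (limma, adjusted p = 0.00657 and 0.0262). It was 5.20 to 5.30 in LWT mice on vehicle and 5.43 to 5.73 in those on CL316243, with no overlap, whereas LKO vehicle (5.15 to 5.34) and LKO CL316243 (5.27 to 6.00) overlapped. Its highest value was that of LKO CL316243 replicate 3, without which the LKO change was 0.16 ± 0.06 (adjusted p = 0.0602). Hspa12a, a distant relative of Hsp70, changed in LKO, by -0.60 ± 0.22 (adjusted p = 0.0288), a call that was also lost without replicate 3 (adjusted p = 0.0811).

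The Hsp110 proteins, which act as nucleotide exchange factors of Hsp70, did not move together. Hspa4 was 4.34 to 4.59 in LWT vehicle, 5.04 to 5.22 in LWT CL316243, 4.44 to 4.65 in LKO mice on vehicle and 4.67 to 5.35 in those on CL316243. Treated mice lay above vehicle mice with no overlap in both genotypes. It rose by 0.65 ± 0.09 in LWT and by 0.33 ± 0.09 in LKO (limma, adjusted p = 4.27e-06 and 0.00373), and its 4 probes gave 0.47 to 0.71 in LWT and 0.20 to 0.52 in LKO. Hspa4l, its paralog, instead fell by 0.85 ± 0.25 in LWT (adjusted p = 0.01), and Hsph1 fell there too as given above.

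Of 7 small heat shock proteins tested, 1 was called in each genotype, namely Hspb8. Hspb8, which works with Bag3 in chaperone-assisted autophagy, was 3.55 to 4.40 in LWT mice on vehicle (median 3.91) and 4.28 to 6.00 in those on CL316243 (median 5.38), and 3.90 to 4.26 in LKO vehicle (median 4.12) and 4.29 to 5.87 in LKO CL316243 (median 4.92). The LWT groups overlapped by a single treated mouse, replicate 4, and the LKO groups did not overlap. The rise was 1.25 ± 0.26 in LWT (2.39-fold) and 0.94 ± 0.26 in LKO (1.91-fold; limma, adjusted p = 0.000557 and 0.00613). Hspb7 varied most within groups of all members (pooled SD 0.98), and its changes of 1.24 ± 0.54 and 0.82 ± 0.54 were not called (adjusted p = 0.0736 and 0.233).

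**Figure D3:**
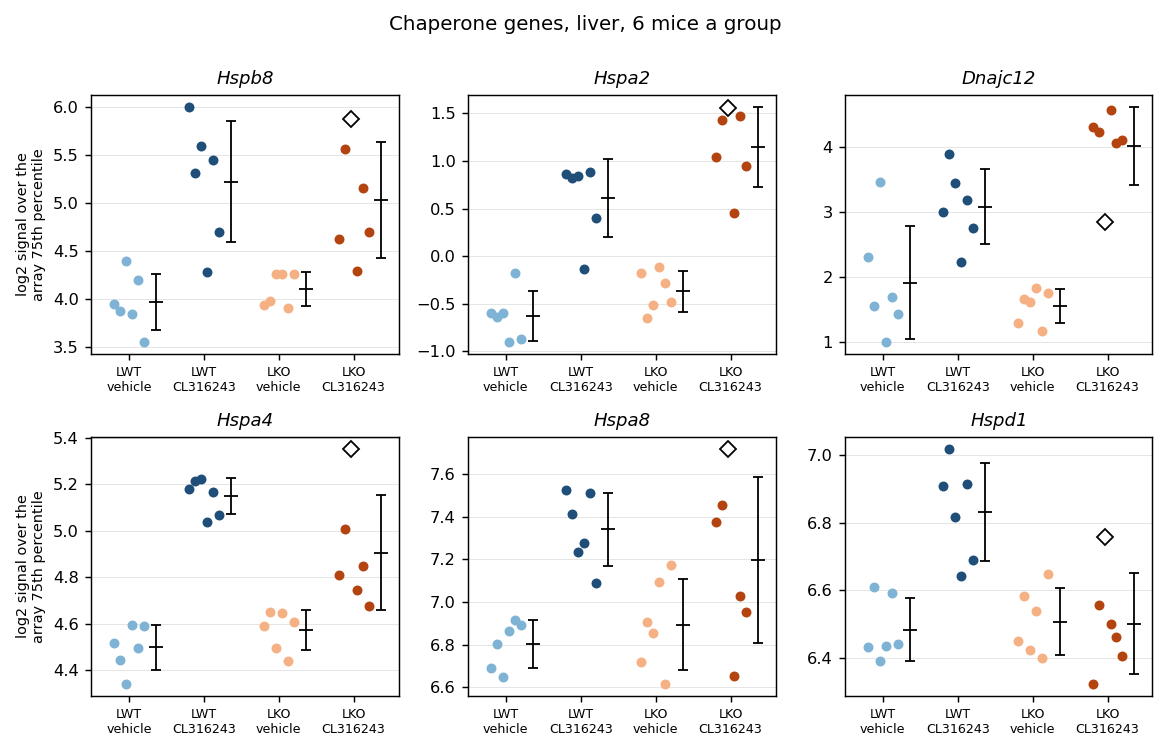
Level in each mouse (log2 signal over the array's 75th percentile) of Hspb8, Hspa2, Dnajc12, Hspa4, Hspa8 and Hspd1 in the 4 groups of 6, with the mean and SD at the right of each group and LKO CL316243 replicate 3 as an open diamond. Hspa2 and Hspa4 separate treated from vehicle mice in both genotypes, and Hspd1 does so in LWT, where it ran from 6.39 to 6.61 and from 6.64 to 7.02.

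Of the cytosolic Hsp90 genes, 1 was called, in LKO. Hsp90aa1, the inducible form, was 5.04 to 5.91 in LWT mice on vehicle and 5.11 to 5.59 in those on CL316243 (0.12 ± 0.19; limma, adjusted p = 0.662), and 4.44 to 5.55 in LKO mice on vehicle and 4.82 to 5.93 in those on CL316243. The LKO rise of 0.53 ± 0.19 was called (adjusted p = 0.0322) and was lost without any of 6 LKO mice, among them replicate 3 of the treated group (0.42 ± 0.19, adjusted p = 0.0914). Hsp90ab1, the constitutive form, changed by -0.23 ± 0.10 and 0.05 ± 0.10, neither called (adjusted p = 0.0613 and 0.691).

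The mitochondrial chaperonin rose in LWT for 1 of its 2 genes. Hspd1, whose product forms the barrel of the folding chamber, was 6.39 to 6.61 in LWT mice on vehicle and 6.64 to 7.02 in those on CL316243, a rise of 0.35 ± 0.08 with no overlap (limma, adjusted p = 0.000943). In LKO it was 6.40 to 6.65 and 6.32 to 6.76, a change of -0.01 ± 0.08 (adjusted p = 0.961). The difference between these changes was -0.35 ± 0.11 (adjusted p = 0.0574), and -0.41 ± 0.10 without LKO CL316243 replicate 3 (adjusted p = 0.0138). Under CL316243, LKO lay below LWT by 0.33 (log2 difference -0.33 ± 0.08, adjusted p = 0.00382). Hspe1, whose product is the lid of that chamber and which shares the promoter interval shown above, changed by 0.10 ± 0.10 and 0.01 ± 0.10 (limma, adjusted p = 0.451 and 0.963).

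Among the J proteins, 2 class A genes rose in LWT, Dnaja2 and the mitochondrial Dnaja3. The Dnaja3 rise (0.22 ± 0.08; limma, adjusted p = 0.027) was lost with quantile normalization, with normexp, in the series table values, with no filter on dim probes, with the LWT groups alone and without any of 4 LWT mice, with adjusted p up to 0.168 over the alternatives. Of 8 class B genes 3 fell in LWT (Dnajb4, Dnajb14, Dnajb2) and 2 in LKO (Dnajb4, Dnajb14), and 0 rose, where 19.4% of all genes fell in each genotype. Dnajb4, a cytosolic partner of Hsp70, was 1.58 to 1.72 in LWT mice on vehicle and 0.39 to 1.38 in those on CL316243, and 1.62 to 2.02 in LKO mice on vehicle and 0.14 to 1.82 in those on CL316243. The LWT groups did not overlap, and the lowest value of the LKO groups was that of replicate 3. It fell by 0.73 ± 0.20 in LWT and by 0.58 ± 0.20 in LKO (limma, adjusted p = 0.00582 and 0.024), and without replicate 3 the LKO change was -0.36 ± 0.15 (adjusted p = 0.0573). All 5 Dnajb4 probes that passed the filter gave negative changes in both genotypes, from -0.28 to -1.02 in LWT and from -0.41 to -1.48 in LKO.

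Class C was the largest group, with 25 genes tested, of which 2 rose and 6 fell in LWT, and 6 rose and 11 fell in LKO. Over all genes tested, 18.9% rose and 19.4% fell in LWT, and 20.9% rose and 19.4% fell in LKO. The largest rise of any member was that of Dnajc12, a J protein that assists the aromatic amino acid hydroxylases, among them phenylalanine hydroxylase of the liver. It was 0.999 to 3.46 in LWT vehicle (median 1.63), 2.23 to 3.90 in LWT CL316243 (median 3.10), 1.17 to 1.84 in LKO vehicle (median 1.63) and 2.84 to 4.58 in LKO CL316243 (median 4.17). The LKO groups did not overlap, and in LWT 2 vehicle mice, replicates 3 and 1, reached into the treated range. The rise was 1.18 ± 0.34 in LWT (2.26-fold) and 2.47 ± 0.34 in LKO (5.55-fold; limma, adjusted p = 0.00865 and 8.75e-06). The difference between the rises, 1.30 ± 0.48, was not called (adjusted p = 0.132). Without LKO CL316243 replicate 3, the lowest of its group, it was 1.53 ± 0.45 and called (adjusted p = 0.0397).

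Class C genes called lower in both genotypes included Dnajc9, a histone-binding J protein, which fell by 0.72 ± 0.15 in LWT and by 0.47 ± 0.15 in LKO. The LKO call of Dnajc9 was lost without LKO CL316243 replicate 3 (-0.39, limma, adjusted p = 0.0531). Dnajc30, a mitochondrial J protein, fell by 0.44 ± 0.10 and 0.62 ± 0.10. Dnajc4, Dnajc8 and Dnajc1 fell by between 0.29 and 0.44 in each genotype. The Dnajc1 value depends on the probe, as the mean of its kept probes gave 0.24 in LWT and -0.08 in LKO, neither called. In LKO the strongest fall of a class C gene was that of Dnajc28, by 1.04 ± 0.22 (limma, adjusted p = 0.000716), from -0.71 to 0.00 under vehicle to -2.44 to -0.74 under CL316243. These LKO groups did not overlap. In LWT the change of -0.50 ± 0.22 was not called (adjusted p = 0.0793). Other class C genes called in LKO and not in LWT were Dnajc11, Dnajc15, Dnajc16, Dnajc17 and Dnajc19, which fell by between 0.18 and 0.56, and Dnajc3, Dnajc18, Dnajc21 and Dnajc27, which rose by between 0.27 and 0.94. The Dnajc3 rise (adjusted p = 0.0485) was lost under 9 of 12 alternatives, slide as a block among them, and without any of 17 mice, LKO CL316243 replicate 3 included (0.26, adjusted p = 0.0835). The Dnajc18 rise was lost without any of 7 LKO mice. Dnajc27 was well above background on 3 of 6 arrays in each vehicle group and 4 of 6 in each CL316243 group, so it passed the filter only through the treated mice, where it is high, and its call supports nothing. The Dnajc11 fall was not called with the mean of its kept probes (-0.23, adjusted p = 0.335), and the Dnajc16 fall turned to 0.12 in the mean of its kept probes. In the main fit the difference between the genotypes' changes was called for none of these except Dnajc11. That of Dnajc18 was called with array weights, with normexp and with the mean of kept probes. It was also called without LKO CL316243 replicate 3 (0.90 ± 0.16, limma, adjusted p = 0.00113).

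Under vehicle no member was called between the genotypes. For LKO against LWT under vehicle, limma called 0 of 64 members, where 1.18% of all genes were called (0.398% higher and 0.778% lower), and 2 members had an unadjusted p under 0.05. These were Hspa1a (0.94 ± 0.44, adjusted p = 0.601) and Dnaja3 (-0.17 ± 0.08, adjusted p = 0.588). The genotypes overlapped for each of the 64 members under vehicle, while 1.8% of all genes did not overlap. The median standard error of a difference was 0.13 over all genes.

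The response to CL316243 differed between the genotypes for 4 members, where 5.41% of all genes were called for this interaction (2.17% with the higher change in LKO and 3.24% with the lower): Hspa4l, Dnajc10, Dnaja2 and Dnajc11. Hspa4l was 0.78 to 2.08 in LWT vehicle (median 1.19), -0.04 to 0.79 in LWT CL316243 (median 0.39), 1.09 to 1.59 in LKO vehicle (median 1.30) and 0.59 to 2.58 in LKO CL316243 (median 1.93). It fell in LWT and was 0.48 ± 0.25 higher in LKO, which was not called (limma, adjusted p = 0.135), and the difference of the changes was 1.32 ± 0.35 (adjusted p = 0.0284). Again the mouse that went against the others of its group was LKO CL316243 replicate 3. Without it the LKO rise was 0.72 ± 0.20 (adjusted p = 0.00885) and the interaction 1.56 ± 0.28 (adjusted p = 0.00122). Within the slide that held it the interaction was -0.16, and within the other slides 1.98 and 2.14. The interaction was not called when LKO CL316243 replicate 2 or LKO vehicle replicate 4 was left out, and 3 of 4 Hspa4l probes gave an interaction of 1.32 to 1.43, the fourth 0.55.

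Dnaja2, a major cytosolic partner of Hspa8, rose in LWT by more than in LKO. It was 3.02 to 3.22 in LWT mice on vehicle and 3.62 to 3.81 in those on CL316243, and 2.89 to 3.11 in LKO mice on vehicle and 3.03 to 3.51 in those on CL316243. All treated LWT mice lay above every other mouse, and LKO CL316243 replicate 3 was next below them. The rise was 0.64 ± 0.07 in LWT and 0.18 ± 0.07 in LKO (limma, adjusted p = 2.68e-07 and 0.0438), and their difference -0.46 ± 0.10 (adjusted p = 0.00537). The LKO call was lost under 9 of 12 alternatives, slide and replicate blocks among them (adjusted p = 0.0543 and 0.0677), and without any of 9 mice. Without replicate 3 the LKO rise was 0.12 ± 0.06 (adjusted p = 0.125), and the difference -0.52 ± 0.08 (adjusted p = 0.000273).

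Dnajc10, a J protein of the endoplasmic reticulum that reduces disulfides, was 1.48 to 1.68 in LWT mice on vehicle and 0.85 to 1.36 in those on CL316243, and 1.42 to 1.72 in LKO mice on vehicle and 1.36 to 2.10 in those on CL316243. It fell by 0.49 ± 0.10 in LWT, its change in LKO was 0.16 ± 0.10 (adjusted p = 0.239), and the difference was 0.64 ± 0.15 (limma, adjusted p = 0.00972). Dnajc11, a J protein of mitochondria, was 0.16 to 0.44 in LWT mice on vehicle and 0.19 to 0.43 in those on CL316243, and 0.03 to 0.41 in LKO mice on vehicle and -0.41 to 0.16 in those on CL316243. Its change was 0.05 ± 0.09 in LWT, and it fell by 0.41 ± 0.09 in LKO, a difference of -0.46 ± 0.12 (adjusted p = 0.0251). Both rest on the brightest probe: other probes gave interactions from -0.12 to 0.85 for Dnajc10 and -1.05 and 0.66 for Dnajc11, and with the mean of the probes neither was called, nor was the LWT fall of Dnajc10 (-0.11, adjusted p = 0.51). Leaving out LKO CL316243 replicate 3 raised the count of interactions to 8, adding Dnajc12, Dnajc18, Hspa4 and Hspd1. The share of all genes called for the interaction rose too, from 5.41% to 7.2%.

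**Figure D4:**
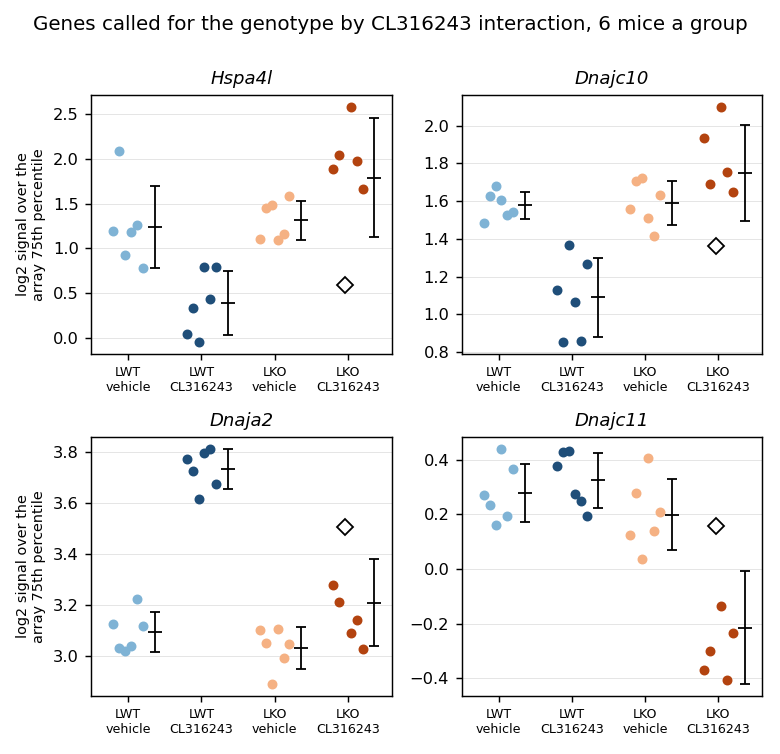
Level in each mouse (log2 signal over the array's 75th percentile) of the 4 genes called for the genotype by CL316243 interaction, in the 4 groups of 6, with the mean and SD at the right of each group. LKO CL316243 replicate 3, the open diamond, lies nearest to the treated LWT mice of all treated LKO mice in each panel, for example at 0.59 for Hspa4l and 3.51 for Dnaja2.

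Under CL316243 the genotypes differed for 17 members (11 higher and 6 lower in LKO), where 15.9% of all genes were called (7.74% higher and 8.17% lower), and 3 members did not overlap (Dnaja2, Dnajb2, Dnajc11), against 6.57% of all genes. Fitted on the treated groups alone, 10 members were called, and 10.3% of all genes. Besides Hspa1a, the genes higher in LKO were led by Hspa4l (1.40 ± 0.25; limma, adjusted p = 0.000329), Dnajb5 (0.73 ± 0.16, adjusted p = 0.00299), Dnajc10 (0.66 ± 0.10, adjusted p = 7.78e-05) and Hspbap1 (0.64 ± 0.17, adjusted p = 0.0105). With the mean of kept probes the Hspbap1 difference was 0.36 and not called (adjusted p = 0.424), and that of Dnajc10 was 0.36. Dnajc18, Hspa13, Dnajb11, Dnajc3, Dnajc21 and Dnajb2 were higher by between 0.24 and 0.57. Of these, Hspa13, Dnajb11 and Dnajc3 belong to the endoplasmic reticulum. The genes lower in LKO were Dnajc11 (-0.54 ± 0.09), Dnaja2 (-0.52 ± 0.07), Hspb6, Hspd1, Dnaja3 and Dnajc17, with the last 4 between -0.37 and -0.28. The call of Dnajb11 was lost without any of 19 mice and with slide as a block (adjusted p = 0.0618), that of Hspb6 without any of 8 mice and with slide or replicate number as a block (adjusted p = 0.052 and 0.0567), and that of Dnajc17 without any of 4 mice. LKO CL316243 replicate 3 was among these mice in each case, and the Dnajb2 call was lost without it too.

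The regulators and helpers of these chaperones gave the following counts, which were not tested as sets. Over all genes tested, 38.3% were called in LWT (18.9% higher and 19.4% lower) and 40.3% in LKO (20.9% higher and 19.4% lower). Of 6 heat shock factors and their regulators tested, 2 fell in each genotype and 0 rose; Hsf2 fell by 0.63 ± 0.20 in LWT and by 0.70 ± 0.20 in LKO (limma, adjusted p = 0.0158 and 0.00786), and Hsf1, the master regulator of the heat shock response, changed by 0.16 ± 0.07 and 0.12 ± 0.07, neither called (adjusted p = 0.0565 and 0.166). Of 18 Hsp90 cochaperones, 3 rose and 5 fell in LWT, and 6 rose and 3 fell in LKO. Rpap3, which links Hsp90 to the assembly of polymerases, rose by 1.77 ± 0.25 and 1.31 ± 0.25, while Stip1, which joins Hsp70 to Hsp90, fell by 0.55 ± 0.13 and 0.51 ± 0.13, and Fkbp4, an immunophilin of steroid receptor complexes, fell by 0.98 ± 0.15 and 0.55 ± 0.15.

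Of 11 Hsp70 cochaperones, a list that shares Hspbp1 with the members, 4 rose and 2 fell in LWT and 2 rose and 2 fell in LKO. By the interaction, 3 of the 11 had a lower change in LKO than in LWT, against 3.24% of all genes. Both nucleotide exchange factors of mitochondrial Hsp70 were among these 3. Grpel2 rose by 2.23 ± 0.12 in LWT and 1.28 ± 0.12 in LKO (limma, adjusted p = 1.66e-11 and 1.16e-07), with a difference of -0.95 ± 0.17 (adjusted p = 0.00127). Grpel1 rose by 0.50 ± 0.07 in LWT, while its change in LKO was -0.09 ± 0.07 (adjusted p = 0.311), with a difference of -0.58 ± 0.09 (adjusted p = 0.000383). Bag3, the partner of Hspb8, rose by 0.79 ± 0.20 and 0.62 ± 0.20 (adjusted p = 0.00326 and 0.017). Of 9 subunits of the cytosolic chaperonin TRiC, 1 rose and 2 fell in LWT and 4 fell in LKO, and of 6 prefoldin subunits 2 and 3 fell. Of 9 genes of mitochondrial protein quality control 1 rose in each genotype, the matrix protease subunit Clpx (1.71 ± 0.15 and 0.96 ± 0.15), with an interaction of -0.76 ± 0.21 (adjusted p = 0.0398), and 2 fell in LWT and 3 in LKO.

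Within groups, some of these genes varied together from mouse to mouse. After subtracting the group means, all 78 pairs among 13 genes fixed for naming were correlated over the 24 mice, with permutation of mice within groups (100000 resamples, both-sided p) and Benjamini-Hochberg adjustment over the 78 pairs; this was added after the levels had been seen. The points share arrays and scaling. Pearson's r had an adjusted p under 0.05 for 20 pairs, 14 positive and 6 negative. Pairs of other genes were not correlated, so this count cannot show whether these genes vary together more than others do. All 20 kept their sign over the 8 mice of each slide and without the 2 mice farthest from the median of the first gene, where the size of r was 0.33 to 0.87. Without LKO CL316243 replicate 3 it was 0.46 to 0.86.

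The heat shock genes formed the 14 positive pairs. Hsph1 and Hsp90ab1 gave r = 0.86 and Spearman's rho = 0.86 (permutation p = 2e-05 for both, adjusted p of r = 0.00052), r = 0.87 without the 2 farthest mice, and r = 0.93, 0.85 and 0.89 within the 3 slides. Hspd1 and Hspe1, which share a promoter interval, gave r = 0.81 and rho = 0.79 (permutation p = 2e-05 and 6e-05, adjusted p of r = 0.00052), r = 0.75 without the 2 farthest mice, and r = 0.90, 0.78 and 0.76 within slides. Hspa1a and Hspa1b, with near-identical promoters, gave r = 0.80 and rho = 0.71 (permutation p = 0.00155 and 0.00136, adjusted p of r = 0.00864), with r = 0.58 without LKO CL316243 replicates 3 and 4, and r = 0.86, 0.70 and 0.70 within slides. Whether shared promoter sequence plays a part was not tested.

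The cold-inducible genes formed the 6 negative pairs, with different partners. Cirbp went against Hspd1 (r = -0.79, rho = -0.73, permutation p = 8e-05 and 0.00045, adjusted p of r = 0.00156) and against Hsp90aa1 (r = -0.78, rho = -0.78, permutation p = 1e-05 and 2e-05, adjusted p of r = 0.00052), where 1e-05 is the smallest p these resamples can give. Without the 2 farthest mice these were r = -0.67 and -0.76, and within slides r = -0.84, -0.85 and -0.49 for Hspd1 and r = -0.85, -0.82 and -0.55 for Hsp90aa1. Rbm3 went against Hspb1 (r = -0.75, rho = -0.72, permutation p = 0.00018 and 0.00035, adjusted p of r = 0.00201) and Dnajb1 (r = -0.70, rho = -0.63, permutation p = 0.00134 and 0.00223, adjusted p of r = 0.00804), with r = -0.64 and -0.55 without the 2 farthest mice. Within slides these were r = -0.63, -0.69 and -0.97 for Hspb1 and r = -0.59, -0.68 and -0.83 for Dnajb1. Between Cirbp and Rbm3 themselves r was 0.06 (rho = 0.18, permutation p = 0.809 and 0.425).

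**Figure D5:**
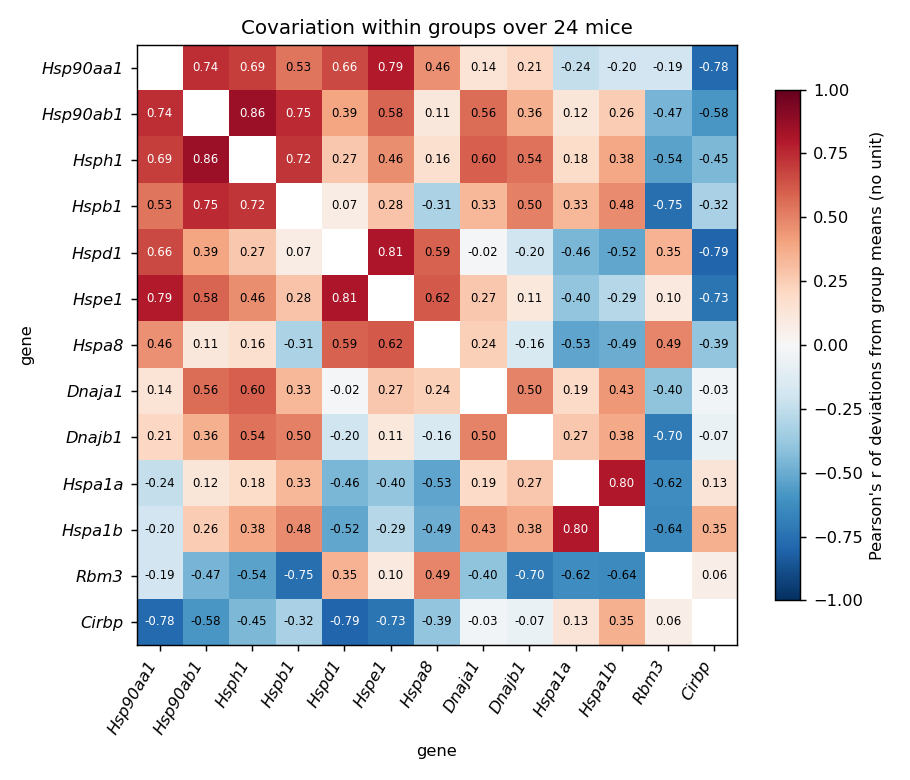
Pearson's r, without unit, between 13 genes over 24 mice after subtraction of each group's mean, in red for positive and blue for negative values. Hsp90aa1, Hsp90ab1, Hsph1 and Hspb1 form a block of positive values from 0.53 to 0.86 (the lowest, Hspb1 with Hsp90aa1, has an adjusted p of 0.0615), and the row of Cirbp is negative against Hsp90aa1 (-0.78), Hspd1 (-0.79) and Hspe1 (-0.73).

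Members differed in how much they varied between mice of a group. The pooled SD within groups was 0.21 at the median member and 0.23 at the median gene tested. It was highest for Hspb7 (0.98), Hspa1b (0.89), Hspa1a (0.81) and Dnajc12 (0.62). These SDs include LKO CL316243 replicate 3, the lowest of its group for Hspa1a and Hspa1b, and were not computed without it. Without this mouse the standard error of the Hspa1b change in LKO fell to 0.27. The 7 members that did not pass the filter were Dnajb13, Dnajb3, Dnajb7, Dnajb8, Dnajc6, Hspa1l and Hspb3, and for these no level is given.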

How the data were processed

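Livers of 24 mice in 4 groups of 6 were assigned to groups from the labels. Per the file headers, the authors read each spot's intensity with Feature Extraction 10.10.1.1; the processed intensity is background-subtracted. The series table was deposited as log2 values: they matched quantile-normalized log2 median signals within 0.01 for 99.26% of values over 31367 probes, and were used as an alternative. Of its columns, 0 lacked a sample. Array number limits the precision.

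Outlier spots were removed, spots of a probe averaged, and each array's 75th percentile subtracted from log2 processed intensity. A probe was kept if it stood well above background in 4 or more of the 6 mice of a group, with at least 3 values in every group (32037 probes). The probe with the highest mean stood for its gene (21331 genes). Gene names are the array's. limma 3.58.1 in R 4.3.3 fitted 1 mean per group, with empirical Bayes moderation and Benjamini-Hochberg adjustment within each of 5 comparisons, tested on simulated data. P-values measure the spread between mice. The 24 arrays lay on 3 slides, with 2 mice of every group on each.

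The members, lists and tests were chosen with earlier results of these data known. Named were 13 fixed genes, up to 10 called members per direction in each comparison, by size of change, and all called for the interaction; Hspb7 and any other member beyond this rule were named after their values were seen. Alternatives were scaling, background correction, the series table, dim-probe filters, probe choice, slide and replicate blocks, array weights, a fold limit and leaving out each mouse. Promoters are RefSeq's (GRCm38.p6, 57 of 71 members matched by symbol).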

Additional observations from a re-analysis of the deposited data

Results flagged for a closer look

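The genotype by CL316243 interaction was called by limma for 4 members, with log2 differences of 1.32 for Hspa4l, 0.64 for Dnajc10, -0.46 for Dnaja2 and -0.46 for Dnajc11.

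Among 176 groups of 6 mice, 4 for each of 44 named genes, 21 had a highest or lowest mouse set apart from the rest by Dixon's test, which chance alone does in about 1 of 20 groups. LKO CL316243 replicate 3 was the lowest of its group for Hspa1a (-1.63), Hspa1b (-1.68), Dnajc12 (2.84), Dnajc4 (1.36) and Dnajb14 (1.02). LWT vehicle replicate 2 was the highest of its group for Hsp90aa1 (5.91), Hsp90ab1 (7.27), Hspb1 (5.03) and Hspa4l (2.08); for Hspa1a it was the second lowest (-2.08). LWT vehicle replicate 3 was set apart for Dnajc21 (2.29), Dnajc28 (-0.97) and Hspa1b (0.25). In LKO vehicle, replicate 6 was high for Dnajb14 (1.99) and Hspe1 (6.06), and replicate 5 was low for Dnajc16 (-0.41) and high for Dnajc28 (-0.0022). In LWT CL316243, replicate 3 was high for Hspa13 (2.16) and Hspbap1 (0.14), replicate 6 high for Hspa12a (-0.97) and replicate 1 low for Hspb6 (1.16). LKO CL316243 replicate 4 was high for Hspb1 (5.42).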

How the results depend on the processing

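Members called kept within 1.5 times the main count (23 in LWT, 29 in LKO, 4 for the interaction, 0 for genotype under vehicle and 17 under CL316243) except as follows. The interaction had 2 calls with no filter on dim probes and 10 with array weights. The shares of all genes called were then 1.79% and 9.97%, against 5.41% in the main fit. Fitted on the treated groups alone, 10 members differed by genotype, and 10.3% of all genes, against 15.9% in the main fit. Asking also for a change of 1.5-fold left 9 in LWT, 10 in LKO, 2 for the interaction and 5 for genotype under CL316243. Over all genes it left 17.8%, 18.2%, 3.8% and 7.63%, in the same order. Leaving out each mouse gave 21 to 26, 24 to 31, 3 to 8, 0 to 0 and 13 to 19. The 8 came without LKO CL316243 replicate 3, where 7.2% of all genes were called. The shares of all genes for the other counts are not given here. Quantile normalization and normexp each gave 10 higher and 17 lower in LWT, in place of 11 and 12. Of all genes, 39.1% and 39.2% were called there, against 38.3% in the main fit. Without the filter the median change of all genes in LWT was 0.11. Of 69 calls on named genes, 20 held under all alternatives and 53 without each mouse. Signs turned with the mean of kept probes for Dnajc1 in LWT (0.24) and Dnajc16 in LKO (0.12), and within a slide for Hspa1a (-0.26) and Dnajc18 (-0.062) in LKO, the Hspa4l interaction (-0.16), and genotype under CL316243 for Dnajb11 (-0.14), Dnajc21 (-0.017) and Hspb6 (0.034); the cause was not tested. The labels do not say whether replicate numbers pair mice. Deviations from the group means of same-numbered mice correlated at -0.18 to 0.42 (median 0.05), over 0.1 in 11 of 36 pairs. The highest were between treated LWT and LKO mice, 0.42 for number 4 and 0.40 for number 3. Such correlations cannot show whether the mice were paired. With the replicate number as a block, 24, 29, 4, 0 and 16 members were called, beside 39%, 40.7%, 5.71%, 1.27% and 16.6% of all genes. Signal near background limits Dnajc27 and the dim second probes.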
